A study of Mus musculus with 24 samples.

Results

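The response to BRAFV600E was compared between colonic (COL) and small intestinal (SI) organoids, that is, self-organizing cultures of mouse intestinal epithelium. The 8 libraries of the organoids carrying only the conditional Braf allele were chosen by their labels, out of 24 libraries in all. They fall into 4 groups of 2 libraries, COL off, COL on, SI off and SI on. All 4 groups came from C57BL/6N mice of the genotype BraffloxV600E/+;Villin::CreERT2, so the off organoids carried the floxed allele and the recombinase as well. This recombinase is driven by the Villin promoter, which is active in intestinal epithelium, and it becomes active upon 4-hydroxytamoxifen (4-HT). Off organoids received ethanol. On organoids received 4-HT for 24 h, at 3.5 µM in COL and at 0.5 µM in SI, and RNA was taken on day 3 after induction in COL and on day 8 in SI. Each tissue was represented by 1 donor culture, so tissue, donor culture, dose and day of harvest cannot be told apart in any difference given here. The 2 libraries of a group were described as duplicates of 1 culture, so their spread does not measure differences between animals. What it does hold was not tested. The other 16 libraries served to estimate the spread of each gene, and 8 of them, from organoids with BraffloxV600E/+;Trp53LSL-R172H/+;Villin::CreERT2 (BRAFp53), as well as 8 from organoids with Trp53LSL-R172H/+;Villin::CreERT2 (p53), are used for comparison towards the end.

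BRAF is a kinase that phosphorylates MEK, which in turn activates ERK. Active ERK switches on transcription factors of the FOS and ETS families and also induces its own inhibitors, the dual specificity phosphatases (DUSP) and Sprouty proteins, which limit the signal. In the intestine, EGF receptor ligands feed this pathway, stem cells at the crypt base divide under Wnt signals, and their progeny become absorptive cells, which digest and take up nutrients, or secretory cells such as goblet, Paneth, tuft and enteroendocrine cells. Absorptive cells of the small intestine carry the disaccharidases, peptidases and transporters of the brush border, whereas colonic absorptive cells mainly take up water and ions.

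The COL libraries held 51.2 to 64.3 M counts (M, 1000000) and the SI libraries 44.4 to 56.7 M counts, over 19250 to 22750 genes with a count. Expression is given in CPM, counts per 1000000 after TMM normalization, and 3 counts, taken as the limit of detection, correspond to 0.0421 to 0.0878 CPM. This limit and all intervals on single libraries cover counting error only. Epcam, an epithelial surface protein, ranged from 461 to 651 CPM over the 8 libraries, and the stromal and immune markers Ptprc and Col1a1 stayed under 1 CPM. Of 18 such markers 10 passed the filter on low counts, and their summed level was 5.92 to 11.6 CPM in COL and 2.05 to 2.57 CPM in SI. The 1 marker of these with a called change was Cd68, a lysosomal protein of macrophages. It rose in COL from 3.76 and 3.99 to 7.60 and 7.15 CPM and read 1.18 and 0.925 CPM off and 0.646 and 0.878 CPM on in SI (difference 1.40, edgeR adjusted p = 0.0404, and 0.165 without SI on replicate 1). Its part in the results for COL was not tested.

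The cultures were also examined for signs that go against their labels. SI on replicate 1 held 770 counts of Xist, the RNA that silences an X chromosome in females, against 8 in SI on replicate 2 and 12 and 27 in the SI off libraries. This is 12.2% of the mean of the 8 SI libraries from the other genotypes (10.3% to 14.9% of the single libraries). The same library held 854 CPM of Reg1 against 12.9 in its partner, and 87.4 CPM of Olfm4 against 10.3. The source of these transcripts was not tested, and counts and genes are therefore also given without this library. The COL cultures expressed Gata4, a transcription factor of the proximal intestine, at 32.1 to 49.4 CPM, compared with 0.293 to 2.67 CPM in the other COL libraries of the series and 80.1 to 91.5 CPM in the SI libraries. They expressed the colonic carbonic anhydrase gene Car1 at 1328 to 4948 CPM, against at most 0.267 CPM in SI. Car1 was thus present alongside Gata4. The SI BRAF libraries in part stood apart from the other SI libraries. Onecut2, a transcription factor, read 6.09 to 22.9 CPM in them against 126 to 209 CPM. Apart from SI on replicate 1, Reg1 read 12.9 to 26.7 CPM against 575 to 6931 CPM. Cdx2 overlapped (48.2 to 63.5 and 38.9 to 59.0 CPM). The Y chromosome gene Eif2s3y was at most 0.114 CPM in the COL BRAF libraries and 60.1 to 78.2 CPM in the SI BRAF libraries. The causes were not tested.

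To determine where the responses differ, the change from off to on was tested in each tissue and the COL change minus the SI change was tested as a contrast of its own, called the difference below. All were tested over 19673 genes with edgeR (quasi-likelihood) at a Benjamini-Hochberg adjusted p under 0.05. In COL, 2017 genes rose (10.3% of those tested) and 1833 fell (9.32%). In SI, 3048 rose (15.5%) and 2088 fell (10.6%). The difference passed the test for 2108 genes (10.7%). It lay above 0, meaning a more positive change in COL, for 652 genes (3.31%), and below 0 for 1456 (7.4%). Without SI on replicate 1 the difference was called for 1833 genes, 602 above and 1231 below 0, and 1545 of the 2108 genes were among them.

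These tests sort the genes into classes. A shared response was one called in both tissues in the same direction, which held for 1832 genes (9.31%), 1154 up and 678 down. For 221 of the shared genes the size of the change also differed between the tissues. A COL-only response, called in COL, not called in SI and with a called difference, was found for 493 genes (218 up, 275 down). The SI-only class held 1110 genes (784 up, 326 down). In 207 genes the tissues moved in opposite directions, with COL up and SI down in 43 and COL down and SI up in 164. A further 3305 genes were called in 1 tissue only, but their difference was not called, so they count for neither tissue alone. Of these, 1075 of the 1318 called in COL and 1650 of the 1987 called in SI had the same sign in the other tissue. Without SI on replicate 1 the classes held 1999 shared, 357 COL-only, 1008 SI-only and 173 opposite genes.

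**Figure D1:**
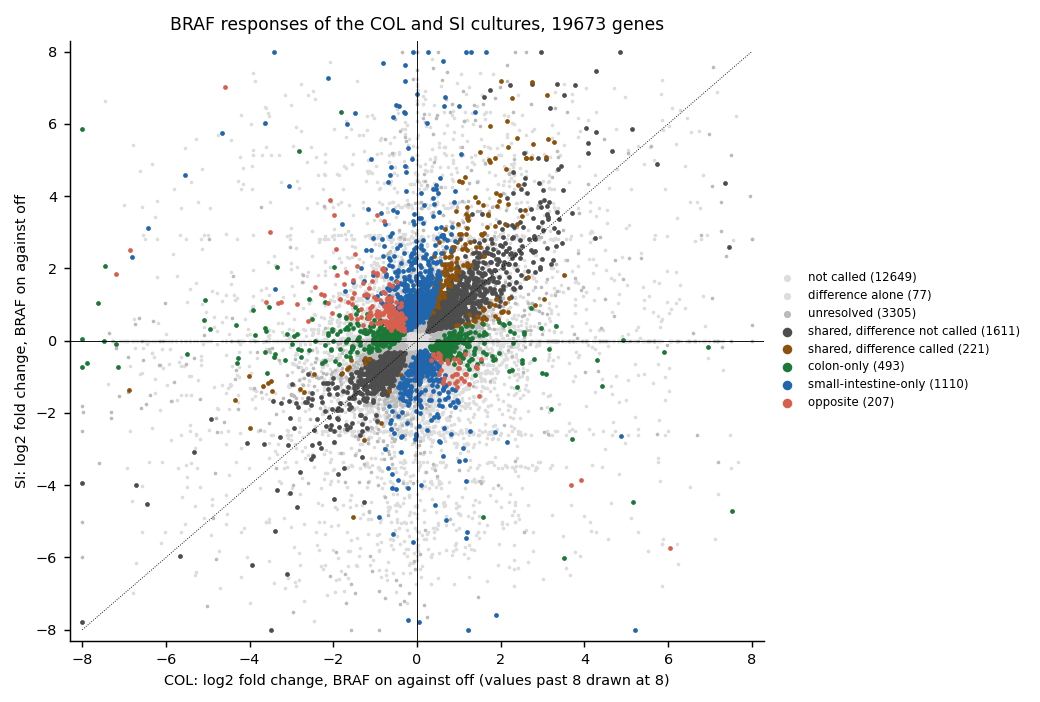
Each point is a gene, placed by its log2 fold change from off to on in COL organoids (x axis) and in SI organoids (y axis), with values past 8 drawn at 8 and colours giving the class. The 207 opposite genes lie in the upper left and lower right quadrants, with 164 of them at the upper left, where COL fell and SI rose.

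Braf (ENSMUSG00000002413, GRCm38 chromosome 6, 39603237 to 39725463) was examined first, although counts do not tell the mutant from the wild-type transcript and thus do not check the labels. It stood at 26.5 and 27.4 CPM in COL off and at 37.9 and 35.3 CPM in COL on. In SI it stood at 11.8 and 14.3 CPM off and at 20.0 and 18.2 CPM on. The on libraries were higher in both tissues, with log2 fold changes of 0.44 in COL (SE 0.18, edgeR adjusted p = 0.0892) and 0.55 in SI (SE 0.18, adjusted p = 0.0302), and the difference was not called (95% interval -0.64 to 0.42). Exons of Braf overlap Ndufb2, and whether the counting used strand was not given in the sources used here. Trp53 fell in both tissues, by 0.43 and 0.57 on the log2 scale (adjusted p = 0.0351 and 0.0047).

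Of the inhibitors that ERK induces, all 8 that rose in SI were among the 10 that rose in COL. Of 16 tested feedback genes, 10 rose in COL and none fell (median log2 fold change 1.04), and 8 rose and 1 fell in SI (median 0.70, and 1.08 without SI on replicate 1). The sizes of the changes differed for some, with the difference called above 0 for 3 and below 0 for 2. Dusp6 (ENSMUSG00000019960, chromosome 10, 99263231 to 99267489), the cytoplasmic phosphatase of ERK, stood at 32.7 and 42.1 CPM in COL off and 127 and 110 CPM in COL on. In SI it went from 7.87 and 9.81 CPM to 73.2 and 83.7 CPM. The SI off libraries were the lowest and the on libraries came close to those of COL, with log2 fold changes of 1.66 in COL and 3.15 in SI (difference -1.48, SE 0.27, adjusted p = 0.0013). Dusp8 behaved likewise, with changes of 0.81 in COL and 2.16 in SI (adjusted p of the difference 0.019). The nuclear phosphatase Dusp4 showed another order. It went from 10.9 and 12 to 28.7 and 26.3 CPM in COL, while the SI libraries stayed between 4.91 and 6.18 CPM in both states (difference 1.24, SE 0.28, adjusted p = 0.00735). The Sprouty gene Spry4 rose from 2.20 and 1.82 to 17.9 and 15.3 CPM in COL and from 1.20 and 1.66 to 2.87 and 3.48 CPM in SI (difference 1.90, SE 0.52, adjusted p = 0.0242). Its difference was not called without any of 5 libraries in turn, among them SI on replicate 1 (1.77, adjusted p = 0.0799). Dusp5 rose alike within the error of the test, from 9.06 and 7.56 to 34.6 and 29.8 CPM in COL and from 13.0 and 12.7 to 48.1 and 69.8 CPM in SI. The interval of its difference was -0.87 to 0.39.

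Targets of ERK among transcription factors and growth genes had the higher median response in COL. Of 26 tested, 14 rose and none fell in COL (median 0.97), 8 rose and 6 fell in SI (median 0.16), and the difference was called above 0 for 6 and below 0 for none (6 and 1 without SI on replicate 1). The median difference of the list was 0.85, compared with -0.01 over all genes. Egr1, an immediate early factor, rose from 22.2 and 23.4 to 43.6 and 47.4 CPM in COL and fell from 10.4 and 11.1 to 7.75 and 6.44 CPM in SI. On and off did not overlap in either tissue, and the difference was 1.59 (SE 0.20, adjusted p = 5.49e-05). Cyclin D1 (Ccnd1) fell in SI from 47.6 and 49.9 to 36.9 and 27.2 CPM, and stood at 35.4 and 48.0 CPM off and at 56.2 and 56.9 CPM on in COL (difference 1.04, adjusted p = 0.00416). Epha4, an ephrin receptor, rose by 0.66 in COL and fell by 1.04 in SI. Ier3 rose in both, and more in COL (1.46 against 0.66, adjusted p of the difference 0.00734). Fos, by contrast, rose from 50 and 60.6 to 198 and 192 CPM in COL and from 15.3 and 12.6 to 37.8 and 49.7 CPM in SI, with an interval of the difference from -0.38 to 0.72.

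Fosl1, which encodes the FOS family member FRA1, needs its single libraries. It stood at 2.10 and 2.18 CPM in COL off and at 19.1 and 23.9 CPM in COL on. In SI the off libraries held 0.0232 and 1.08 CPM and the on libraries 0.423 and 1.17 CPM. The COL groups were far apart, and the SI groups overlapped. The difference was called with all libraries (2.93, SE 0.91, adjusted p = 0.0464), was 2.34 and not called without SI on replicate 1, and was -1.62 without SI off replicate 2. It kept its call without 2 of the 8 libraries only. Its exons overlap those of Ccdc85b.

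Of 12 tested members of the EGF family and its receptors, 6 rose in each tissue. Areg, an EGF receptor ligand, rose from 40.6 and 47.9 to 257 and 250 CPM in COL and from 10.9 and 9.50 to 49.6 and 75.3 CPM in SI. The changes were 2.52 and 2.62 and the interval of their difference was -0.65 to 0.46. The ligand Hbegf rose more in COL, from 29.5 and 35.6 to 118 and 132 CPM, than in SI, from 8.96 and 10.9 to 13.1 and 17.1 CPM (difference 1.34, SE 0.27, adjusted p = 0.00325). Egfr, the receptor, rose in COL from 36.3 and 39.0 to 64.3 and 53.4 CPM and read 21.2 and 20.7 CPM off and 17.9 and 12.5 CPM on in SI (difference 1.11, adjusted p = 0.00447). No gene of the 20 tested of the cascade itself, from receptors' adaptors to ERK, had a called difference, against 10.7% of all genes tested. Of the 20 genes, 7 rose in COL and 6 in SI, against 10.3% and 15.5% of all genes tested.

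**Figure D2:**
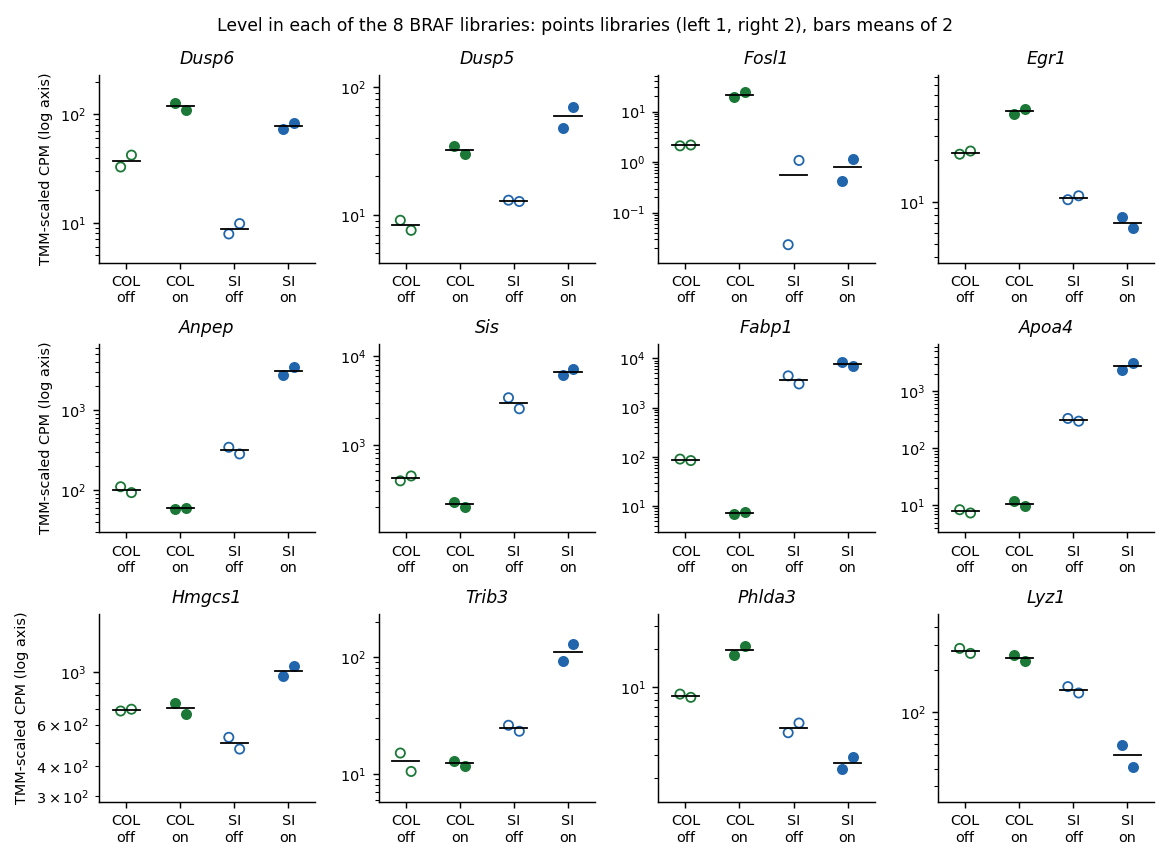
CPM on a log axis of 12 genes in the 8 BRAF libraries, with COL in green, SI in blue, off as open and on as filled points, and bars at the mean of the 2 libraries. Dusp6 and Dusp5 rose in both tissues and Egr1 moved in opposite directions, whereas Anpep, Sis and Fabp1 rose in SI and fell in COL.

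Most genes of the fetal and regenerating epithelium rose in both tissues. Of 22 tested genes, 18 rose in COL (median 1.88) and 17 in SI (median 2.80), and none fell in either. In SI 4 members were at 0 in all libraries, and the median of the others was 3.32. The difference was called for 8 members, below 0 in 7 of them. Ly6a, which encodes the surface protein SCA1, rose from 123 and 136 to 812 and 763 CPM in COL and from 0.972 and 1.08 to 27.6 and 40.8 CPM in SI (difference -2.44, SE 0.33, adjusted p = 0.000113). The level in SI on was still below that of COL off. Anxa3, an annexin, showed the same order, with 153 and 186 CPM off and 515 and 444 CPM on in COL, and 2.64 and 1.40 CPM off and 64.4 and 83.9 CPM on in SI (difference -3.73, SE 0.30, adjusted p = 3.31e-07). Anxa1 rose from 189 and 210 to 848 and 734 CPM in COL and from 1.64 and 1.66 to 10.9 and 9.89 CPM in SI, with a difference that was not called (-0.67, adjusted p = 0.0814). Tm4sf4 had similar off levels in both tissues, 116 and 96.7 CPM in COL and 150 and 107 CPM in SI. It reached 1053 and 756 CPM in COL and 3750 and 5037 CPM in SI (difference -2.01, adjusted p = 0.000821).

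Genes with large shared changes and no called difference came next. Ly6g rose from 4.51 and 6.44 to 164 and 151 CPM in COL. It was at 0 counts in both SI off libraries and at 2.65 and 4.01 CPM in SI on, at least 54.6-fold higher than the limit of detection. Reads may be split among the similar genes of the Ly6 family. Anxa8 rose from 16.3 and 12.5 to 168 and 157 CPM in COL and was close to the limit of detection in SI, at 0.178 and 0.263 CPM on. Clca4a rose from 2.71 and 3.66 to 37.5 and 31.6 CPM in COL and from 0.926 and 1.07 to 27.3 and 30 CPM in SI. Edn3, encoding the peptide endothelin 3, rose from 4.14 and 2.10 to 32.4 and 23.3 CPM in COL and from 2.29 and 1.31 to 21.4 and 29.3 CPM in SI. Ereg, a further EGF receptor ligand, rose by 3.70 in COL and 3.54 in SI, with an interval of the difference as wide as -2.40 to 2.71.

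Other shared genes are expressed by secretory cells or mark the surface. The goblet cell mucin Muc2 rose from 113 and 109 to 552 and 486 CPM in COL and from 24.6 and 20.6 to 81.5 and 159 CPM in SI (2.23 and 2.41). The membrane mucin Muc3 rose from 55.7 and 63.6 to 520 and 501 CPM in COL and from 52.3 and 61.8 to 507 and 1000 CPM in SI (difference -0.63, adjusted p = 0.329, and -1.03 with adjusted p = 0.0499 without SI on replicate 1). Over the 20 goblet genes, 12 rose and 2 fell in COL, and 7 rose and 2 fell in SI. The difference was above 0 for 4 and below 0 for 1 of them, and for 3 and 3 without SI on replicate 1. The urokinase receptor gene Plaur rose from 42.8 and 43.4 to 205 and 171 CPM in COL and from 7.94 and 6.63 to 28.6 and 52.9 CPM in SI.

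AP-1 dimers of FOS and JUN proteins read TGACTCA and TGAGTCA. The wider motif TGANTCA, which also takes in TGAATCA and TGATTCA, was searched on both strands in the 250 bases before and 50 bases after the start of each gene (RefSeq, GRCm38.p6). Of 19669 tested symbols 12588 were matched. It occurred in 7.24% of all of them, in 77 of 747 (10.3%) promoters of shared genes that rose without a called difference, and in 23 of 145 (15.9%) of those that rose in both with a called difference. The COL-only genes that rose held it in 6.02%. These shares are descriptions, and a match is not a binding site. The stretches around the match are shown for 3 genes that rose in both tissues, Plaur and Muc2 without and Tmigd1 with a called difference. The motif is in capitals, and that of Muc2 is the wider form TGAATCA.

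Plaur, chr7:24462374-24462460, plus strand: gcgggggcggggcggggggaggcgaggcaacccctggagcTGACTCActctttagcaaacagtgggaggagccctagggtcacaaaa

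Muc2, chr7:141690149-141690235, plus strand: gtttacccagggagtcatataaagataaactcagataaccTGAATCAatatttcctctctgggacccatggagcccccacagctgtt

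Tmigd1, chr11:76891037-76891119, plus strand: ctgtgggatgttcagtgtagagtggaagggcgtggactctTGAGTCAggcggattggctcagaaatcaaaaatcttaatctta

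Decreases in both tissues were found among genes of proliferation and of stem cells. Of 19 mitosis genes, 15 fell in COL and 14 in SI, with a median of -0.71 in both, and the difference was called for none of them by edgeR. Without SI on replicate 1 the median difference of this list moved from -0.04 to 0.42, again with none called. Mki67, a proliferation antigen, stood at 292 and 323 CPM off and 239 and 221 CPM on in COL, and at 240 and 272 CPM off and 180 and 158 CPM on in SI. Of 20 DNA replication genes, 11 fell in each tissue (medians -0.72 in COL and -0.60 in SI), and without SI on replicate 1 there were 17 that fell in SI (median -1.06). Among 24 stem cell and Wnt target genes, 10 fell and 2 rose in COL (median -0.76), and 17 fell and none rose in SI (median -1.25). Of these genes 10 were shared, and the difference was above 0 for 5 and below 0 for none (median 0.50, and 0.83 with 6 above 0 without SI on replicate 1). Lgr5, the receptor that marks crypt base stem cells, fell from 162 and 149 to 42.2 and 53.2 CPM in COL and from 17.5 and 21.5 to 5.08 and 2.55 CPM in SI. In bulk RNA, fewer cells of a type and less RNA per cell cannot be told apart. Olfm4 fell from 36.1 and 22.5 to 0.980 and 0.953 CPM in COL and from 213 and 228 to 87.4 and 10.3 CPM in SI. The high value in SI on belongs to replicate 1, and the difference was -2.75 with and -0.50 without it, called in neither case.

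The absorptive programme of the small intestine set the tissues apart. Of 22 tested brush border genes, 20 rose and 1 fell in SI (median 1.73), while 6 rose and 5 fell in COL (median -0.19). The difference was below 0 for 16 and above 0 for 1 (median -1.35), against 7.4% and 3.31% of all genes tested. Without SI on replicate 1 it was below 0 for 16 and above 0 for none. Anpep (ENSMUSG00000039062, chromosome 7, 79821803 to 79861059), an aminopeptidase, rose in SI from 343 and 283 to 2779 and 3425 CPM, and fell in COL from 110 and 92.9 to 58.3 and 59.9 CPM. The difference was -4.09 (SE 0.28, adjusted p = 5.85e-08). Sis (ENSMUSG00000027790, chromosome 3, 72888557 to 72967863), sucrase-isomaltase, rose from 3400 and 2552 to 6098 and 7178 CPM in SI and fell from 391 and 444 to 228 and 197 CPM in COL (difference -2.13, SE 0.38, adjusted p = 0.00119). The maltase gene Mgam and the dipeptidase gene Dpp4 likewise rose in SI and fell in COL. The neprilysin gene Mme rose in SI from 72.1 and 59.3 to 288 and 323 CPM, and read 10.6 and 7.01 CPM off and 5.27 and 5.89 CPM on in COL (difference -2.88, adjusted p = 0.000246). Some genes of the list rose in both, and less in COL. Vil1, whose product villin bundles actin in microvilli, rose from 425 and 416 to 772 and 696 CPM in COL and from 573 and 528 to 1747 and 1992 CPM in SI (difference -0.96, adjusted p = 0.00177). The 1 gene above 0 was Mep1a, a meprin subunit, with 19.6 and 23.3 CPM off and 30.8 and 22.5 CPM on in COL, and a decrease from 44.1 and 32.9 to 21.8 and 25.3 CPM in SI (difference 1.02, adjusted p = 0.0395, and 0.125 without SI on replicate 1).

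Lipid uptake followed the same order. Of 20 tested genes, 16 rose and none fell in SI (median 1.80), whereas 4 rose and 3 fell in COL (median -0.02), and the difference was below 0 for 14 and above 0 for none. Fabp1 (ENSMUSG00000054422, chromosome 6, 71199827 to 71205023), a fatty acid binding protein, rose in SI from 4431 and 3032 to 8563 and 7161 CPM. In COL it fell from 90.4 and 84.3 to 6.78 and 7.49 CPM (difference -4.69, SE 0.29, adjusted p = 5.6e-08). The group means of the other COL cultures lay between 0.167 and 0.504 CPM, so the COL BRAF culture started from a level the other COL cultures did not have. The apolipoprotein gene Apoa4 rose from 333 and 298 to 2370 and 3085 CPM in SI and stayed between 7.36 and 11.8 CPM in COL (difference -2.66, SE 0.44, adjusted p = 0.000581). Mttp, which loads lipid onto apolipoprotein B, rose from 853 and 693 to 2816 and 3679 CPM in SI and stood at 137 and 136 CPM off and 103 and 78.2 CPM on in COL (difference -2.66, adjusted p = 2.9e-05). The ileal bile acid binding protein gene Fabp6 rose from 2.22 and 2.43 to 41.8 and 77.4 CPM in SI and was at most 0.483 CPM in COL. Its relative Fabp2 rose in both tissues, by 1.6 in COL and 2.36 in SI.

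Transporters of nutrients gave a median of 0.05 in COL (7 of 20 up, 6 down) and of 1.56 in SI (16 up, 1 down). The difference was below 0 for 15 and above 0 for 1. The sodium-glucose transporter gene Slc5a1 rose from 1689 and 1302 to 4307 and 4706 CPM in SI and fell from 395 and 383 to 159 and 157 CPM in COL (difference -2.89, SE 0.21, adjusted p = 6.13e-08). The basolateral glucose transporter gene Slc2a2 and the iron transporter gene Slc11a2 also moved in opposite directions. The peptide transporter gene Slc15a1 rose in both, from 2.45 and 4.22 to 17.5 and 17.8 CPM in COL and from 11.4 and 13.0 to 205 and 277 CPM in SI (difference -1.89, adjusted p = 0.00343). Slc6a19, a transporter of neutral amino acids, was the member above 0. It rose from 2.69 and 1.23 to 23.6 and 21.5 CPM in COL and from 118 and 94.7 to 321 and 431 CPM in SI (difference 1.69, SE 0.39, adjusted p = 0.00788), so its level remained higher in SI.

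The motif TTTATNG, bound by the intestinal homeodomain factors CDX1 and CDX2, occurred in 9.22% of all promoters. It was found in 6 of 20 (30%) promoters of the brush border list, in 7 of 15 (46.7%) of the lipid list, where the matches of Abcg5 and Abcg8 are 1 site in the promoter they share, and in 4 of 18 (22.2%) of the transport list. Among SI-only genes that rose it was found in 8.96%, and among opposite genes that fell in COL in 9.68%. Among shared genes that rose with a called difference it was found in 21 of 145 (14.5%). Some matches read CTATAAA, or TTTATAG on the other strand, letters that also occur in TATA boxes. Such matches were those of Rbp2, Apob, Abcg5, Abcg8, Dpp4 and Alpi. The shares are descriptions, and a match is not a binding site. The motif CAAAGTCCA of HNF4 occurred in 0.628% of all promoters, in 12 of 625 (1.92%) of SI-only genes that rose and in 2 of 20 (10%) of the brush border list. Cdx1, Cdx2 and Hnf4a had no called difference, while Hnf4g rose in SI from 139 and 106 to 222 and 232 CPM and fell in COL from 15.0 and 15.3 to 8.29 and 9.91 CPM (difference -1.63, adjusted p = 0.00104). The stretches of 4 absorptive genes are shown with the match in capitals. For Sis and Fabp1 this is TTTATNG, read on the other strand. For Alpi, intestinal alkaline phosphatase, and Treh, trehalase, it is CAAAGTCCA, read on the other strand in Treh.

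Sis, chr3:72967869-72967955, minus strand: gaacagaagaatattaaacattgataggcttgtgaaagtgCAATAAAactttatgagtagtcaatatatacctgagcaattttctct

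Fabp1, chr6:71199750-71199836, plus strand: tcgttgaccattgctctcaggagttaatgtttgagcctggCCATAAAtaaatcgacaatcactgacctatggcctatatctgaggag

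Alpi, chr1:87101607-87101665, minus strand: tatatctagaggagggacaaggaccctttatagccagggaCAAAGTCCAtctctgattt

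Treh, chr9:44673122-44673210, plus strand: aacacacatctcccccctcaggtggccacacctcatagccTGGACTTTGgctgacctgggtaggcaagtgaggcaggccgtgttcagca

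Of these 4 genes, Treh was an SI-only gene, rising from 151 and 119 to 311 and 381 CPM in SI and lying under 2.4 CPM in COL (difference -3.09, adjusted p = 0.00915). Alpi rose in SI from 334 and 289 to 743 and 1264 CPM. Its COL off libraries were spread over 95.8 and 36.2 CPM, with 101 and 117 CPM on, and its difference was not called (-0.96, adjusted p = 0.464).

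Other opposite genes were named for the size of their differences. Akp3, a further alkaline phosphatase, rose from 11.7 and 11.5 to 46.3 and 85.3 CPM in SI. In COL it held 21 and 11 counts off and 0 counts in both on libraries, at least 4.55-fold lower. Bst1 rose from 13.3 and 10.6 to 89.2 and 104 CPM in SI and fell from 1.95 and 1.78 to 0.121 and 0.210 CPM in COL, and its exons overlap those of Fbxl5, which is transcribed from the opposite strand and holds more counts (39506 against 9022 over the 8 libraries). The cytochrome gene Cyp3a25 rose from 119 and 104 to 209 and 246 CPM in SI and fell from 26.5 and 20.7 to 2.09 and 2.63 CPM in COL. Hsd17b13, of liver and gut lipid droplets, rose from 147 and 116 to 259 and 292 CPM in SI and fell from 44.0 and 37.9 to 4.11 and 4.56 CPM in COL (difference -4.31, SE 0.30, adjusted p = 5.85e-08). Of the named genes that rose in COL and fell in SI, the largest difference belonged to Fam129b, with 44.9 and 35.2 CPM off and 108 and 110 CPM on in COL, and 53 and 58.9 CPM off and 34.6 and 32.0 CPM on in SI (difference 2.19, SE 0.20, adjusted p = 1.43e-06). Its exons overlap those of Lrsam1. Tnfrsf1b, a receptor of tumour necrosis factor, Rab15, a small GTPase, the podosome adaptor gene Sh3pxd2b, and N4bp3 followed, with differences of 2.04, 1.95, 2.07 and 1.82, and each kept its call when any of the 8 libraries was left out.

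Genes of cholesterol synthesis rose in SI. Of 22 tested genes, 21 rose in SI (median 0.70), compared with 1 up and 3 down in COL (median 0.03). The difference was below 0 for 15 and above 0 for none, with 12 members in the SI-only class and 2 in the opposite class. Hmgcs1 (ENSMUSG00000093930, chromosome 13, 119690379 to 119708260), an enzyme early in the pathway, rose in SI from 530 and 473 to 959 and 1056 CPM. In COL it read 684 and 696 CPM off and 740 and 666 CPM on (difference -0.98, SE 0.17, adjusted p = 0.000739). Hsd17b7, a later enzyme, rose from 35.7 and 38.7 to 116 and 131 CPM in SI, with 55.7 and 54.6 CPM off and 77.7 and 63.4 CPM on in COL. Dhcr7, the last step, fell in COL from 157 and 140 to 70.3 and 72.1 CPM and did not pass the test in SI. The motif TCACNCCAC of SREBP factors occurred in 1.56% of all promoters, 2.56% of SI-only genes that rose and 1 of 15 (6.67%) promoters of this list, which is that of Hmgcs1.

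Hmgcs1, chr13:119690174-119690262, plus strand: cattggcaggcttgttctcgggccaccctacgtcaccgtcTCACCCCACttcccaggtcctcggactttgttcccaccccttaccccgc

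Genes of endoplasmic reticulum stress and the integrated stress response rose in 15 of 19 cases in SI (median 0.61) and in 3 cases in COL (2 fell, median 0.07). The difference was below 0 for 11 and above 0 for none. Trib3 (ENSMUSG00000032715, chromosome 2, 152337422 to 152344032), a pseudokinase induced by ATF4 and CHOP, rose in SI from 26.1 and 23.2 to 92.9 and 130 CPM, while COL held 15.1 and 10.5 CPM off and 13.0 and 11.7 CPM on (difference -2.22, SE 0.33, adjusted p = 0.000245). Ddit3, which encodes CHOP, rose from 17.4 and 16.8 to 54.4 and 85.4 CPM in SI and stayed between 27.0 and 31.5 CPM in COL. The chaperone gene Hspa5 rose from 710 and 700 to 1204 and 1327 CPM in SI and read 586 to 677 CPM in COL. For Trib3 and Ddit3 the difference was -2.44 and -2.22 without SI on replicate 1. The ATF4 motif TGATGNAAT was found in 0 of 18 promoters of the list in this window.

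Glycolysis genes rose in 15 of 21 cases in SI (median 0.60) and in 3 in COL (median 0.11), with 6 differences below 0. The lactate dehydrogenase gene Ldha rose from 3705 and 3361 to 7649 and 7867 CPM in SI and read 3195 and 3164 CPM off and 4042 and 3504 CPM on in COL (difference -0.89, SE 0.16, adjusted p = 0.0015). Hexokinase 1 (Hk1) rose in both tissues, from 110 and 94.4 to 216 and 214 CPM in COL and from 15.3 and 13.9 to 65.0 and 104 CPM in SI (difference -1.46, SE 0.35, adjusted p = 0.0105), with no call without SI off replicate 2 (-1.39) or SI on replicate 2 (-1.09). Hk2 rose by 0.77 and 1.05, with an interval of the difference from -0.72 to 0.17. The glucose transporter gene Slc2a1 rose by 1.41 and 1.5, with an interval from -0.67 to 0.50.

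Of 28 enzymes of xenobiotic metabolism, 4 rose and 10 fell in COL (median -0.31), 15 rose and 3 fell in SI (median 0.79), and the difference was below 0 for 15 and above 0 for none. Reads of these families (Ces, Cyp3a, Ugt2b) may be split between near-identical copies. The carboxylesterase gene Ces2b rose from 4.82 and 4.00 to 120 and 129 CPM in SI and stayed between 7.70 and 13.7 CPM in COL (difference -5.12, SE 0.67, adjusted p = 7.8e-05). Ugt2b5, a glucuronosyltransferase, fell in COL from 9.85 and 11.5 to 0.919 and 0.496 CPM and read 87.4 to 121 CPM in SI. Ces1d fell in both tissues, and more in COL (-3.50 against -1.11). The same order held for the glutamate transporter gene Slc1a1, which fell from 21.1 and 20.5 to 0.723 and 1.89 CPM in COL and from 37.9 and 30.9 to 18.0 and 16.6 CPM in SI (difference -3.03, SE 0.42, adjusted p = 0.000122), for Sh3rf2 (difference -2.40) and for the peroxisomal oxidase gene Pipox (difference -2.07). The remaining COL-only decreases, Slc28a1, Nat8 and Bbox1, rested on at most 49 counts in any COL library against 602 or more in every SI library, and each lost its call without at least 1 COL library. Hao2 fell in COL from 14.5 and 12.6 to 4.22 and 3.41 CPM. In SI it was at 0 counts but for 13 counts in on replicate 1, at least 2.38-fold over the limit of detection, and without that library its difference was -1.82 and not called.

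Targets of p53 had a higher median response in COL. Of 28 tested, 14 rose and 3 fell in COL (median 0.70), 7 rose and 5 fell in SI (median -0.12), and the difference was above 0 for 12 and below 0 for 2. Phlda3 (ENSMUSG00000041801, chromosome 1, 135766119 to 135769136), an inhibitor of AKT, rose from 8.87 and 8.37 to 17.9 and 20.9 CPM in COL and fell from 4.45 and 5.29 to 2.32 and 2.87 CPM in SI (difference 2.08, SE 0.35, adjusted p = 0.00066). Mdm2, the ubiquitin ligase of p53, rose from 28.9 and 34.0 to 65.2 and 64.8 CPM in COL and read 30.1 and 30.4 CPM off and 35.1 and 41.3 CPM on in SI (difference 0.71, adjusted p = 0.0199, and 0.0919 without SI on replicate 1). Bax, which permeabilizes mitochondria, rose from 153 and 138 to 236 and 230 CPM in COL and stayed between 151 and 160 CPM in SI (difference 0.70, SE 0.13, adjusted p = 0.00148). Gdf15, a stress cytokine, rose from 6.27 and 1.68 to 15.5 and 22.9 CPM in COL and overlapped between the states in SI. The exceptions below 0 were Fas, a death receptor that rose in SI, and Sesn1, which fell in COL. Cdkn1a, the CDK inhibitor p21, rose in both tissues, from 299 and 304 to 590 and 635 CPM in COL and from 208 and 214 to 607 and 765 CPM in SI (difference -0.68, adjusted p = 0.0668). Without SI on replicate 1 the list had 9 differences above and 3 below 0.

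The COL-only increase was led by Col18a1 (ENSMUSG00000001435, chromosome 10, 77052178 to 77166548), a collagen of basement membranes. It rose from 3.29 and 4.19 to 78.4 and 69.4 CPM in COL and was at 1.23 and 0.367 CPM off and 0.534 and 0.527 CPM on in SI (difference 4.83, SE 0.56, adjusted p = 2.17e-05). In contrast, the basement membrane linker gene Nid1 rose in both, from 5.05 in both COL off libraries to 43.3 CPM in both on libraries and from 0.648 and 0.436 to 51.4 and 66.9 CPM in SI (difference -3.69, SE 0.46, adjusted p = 5.48e-05). Over the 23 genes of basement membranes and integrins, 14 rose in COL and 12 in SI, with 3 differences above and 2 below 0 (3 and 1 without SI on replicate 1). Itgb4, an integrin of hemidesmosomes, rose in both (1.80 and 1.38, difference not called). Further COL-only increases were the solute carrier gene Slc4a11 (difference 3.89, and 3.26 without SI off replicate 1) and the retinaldehyde dehydrogenase gene Aldh1a3 (2.38, and 2.01 to 3.01 with single libraries left out). Neither was robust to leaving out single libraries. The actin adaptor gene Pdlim7 (2.37) and Oas1a, an interferon-induced enzyme of a multigene family (2.37), belonged here as well. Pdlim7, for instance, rose from 20.4 and 16.3 to 62.7 and 67.3 CPM in COL and read 40.5 and 34.3 CPM off and 25.6 and 25.7 CPM on in SI. Vim, encoding the intermediate filament vimentin, rose from 1.29 and 0.826 to 7.54 and 6.56 CPM in COL (difference 1.82, adjusted p = 0.037, and 0.105 without SI on replicate 1). Myof, a membrane repair protein, rose from 22.4 and 14.6 to 75.7 and 67.6 CPM in COL and stayed under 0.4 CPM in SI, with a difference of 2.29 (adjusted p = 0.0375) that was 1.76 and not called without that library, and not called without any of 4 further libraries in turn.

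In the SI-only class, 2 genes rested on the library with Xist. Hoxa7 was at 0 counts in both SI off libraries and at 81 and 2 counts in SI on, the 81 counts being in replicate 1, and at 31.3 to 36.3 CPM in COL. Amotl1, a partner of YAP, held 29 and 6 counts in SI on and 0 in SI off. They rose at least 15.3-fold and at least 6.74-fold over the limit of detection. Neither was called without replicate 1, with differences of -5.01 and -5.84, and Amotl1 kept its call without 2 of the 8 libraries only. Mmp14, a membrane metalloproteinase, had a difference of -3.56 with and 0.63 without that library. On the other hand H2-Q1, an antigen presenting molecule of a multigene family, rose from 8.03 and 7.63 to 66.5 and 79.1 CPM in SI in both libraries and was 2.80 to 7.18 CPM in COL (difference -3.97, SE 0.39, adjusted p = 3.13e-06). Hsd17b6 rose in SI from 11.9 and 6.74 to 26 and 24.1 CPM and was at most 0.308 CPM in COL, and was not called without COL off replicate 1 or COL on replicate 1 (-3.72).

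Genes of Paneth and tuft cells were among the decreases in SI. Of 18 Paneth genes, 11 fell and 1 rose in SI (median -1.59), and 4 fell and 2 rose in COL (median -0.53), with the difference above 0 for 6 and below 0 for 1. Lyz1, the Paneth lysozyme, fell from 152 and 137 to 58.7 and 41.2 CPM in SI and read 283 and 261 CPM off and 255 and 229 CPM on in COL (difference 1.36, SE 0.31, adjusted p = 0.00755). The defensin gene Defa21 fell from 23.3 and 18.3 to 1.54 and 0.849 CPM in SI and stayed between 2.55 and 3.99 CPM in COL, where reads may be split within the defensin family. Wnt3, the Wnt ligand of Paneth cells, fell from 3.47 and 5.05 to 1.38 and 0.322 CPM in SI. The Notch ligand gene Dll4 was the exception, rising from 5.32 and 3.89 to 9.39 and 11.7 CPM in SI and falling from 26.7 and 20.9 to 10.6 and 12.9 CPM in COL. Of 12 tuft genes, 5 fell in SI and 1 in COL. Dclk1, a tuft cell kinase, fell from 5.16 and 2.44 to 1.14 and 0.146 CPM in SI and stayed between 17.7 and 27.0 CPM in COL (difference 2.71, SE 0.66, adjusted p = 0.0118). Without SI on replicate 1 the difference was 4.92, and without SI off replicate 1 it was 2.08 and not called. The other SI-only decreases were Tcaf2, which was near the limit of detection in SI on and lost its call without any of 6 libraries in turn, the Polycomb gene Cbx6, the lipid transfer protein gene Pitpnc1 and the RhoGAP gene Arhgap29, which was not called without COL off replicate 1 (1.72) or SI on replicate 2 (1.41). Cbx6, for instance, fell from 7.85 and 9.86 to 1.94 and 0.790 CPM in SI and read 18.8 to 26.3 CPM in COL (difference 2.29, SE 0.45, adjusted p = 0.00269). Sox9, a transcription factor of crypt and Paneth cells, fell from 46.2 and 49.1 to 21.1 and 14.3 CPM in SI and read 56.4 to 70.9 CPM in COL (difference 1.23, adjusted p = 0.00396).

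Shared genes with a larger rise in SI were Tmigd1, an adhesion molecule of absorptive cells, and Enpp3, an ectonucleotidase. Tmigd1 rose from 24.7 and 30.2 to 153 and 114 CPM in COL and from 5 and 2.71 to 344 and 456 CPM in SI, so the order of the tissues turned between off and on (difference -4.43, SE 0.42, adjusted p = 2.08e-06). Enpp3 rose from 2.40 and 1.81 to 9.04 and 9.59 CPM in COL and from 3.22 and 0.786 to 131 and 130 CPM in SI. Sgk2, a kinase of ion transport, rose by 1.14 in COL and 4.52 in SI. Itpripl2 was among the shared genes with a larger rise in COL (2.83 against 0.97, difference 1.85), and was not called without COL off replicate 1 (1.55) or SI off replicate 2 (1.69). The peptide hormone gene Pyy of enteroendocrine cells rose from 55.1 and 29.4 to 151 and 124 CPM in COL and from 0.833 and 0.349 to 17.3 and 19.0 CPM in SI (difference -3.29, adjusted p = 0.00737). Pyy was the only 1 of 18 enteroendocrine genes with a called difference, against 10.7% of all genes tested. The median difference of this list was 0.37. Of 22 genes of colonocytes, 12 rose and 3 fell in COL, and 14 rose and none fell in SI. Among them 2 moved in opposite directions, and the difference was called below 0 for 3 and above 0 for none. Guca2a, encoding guanylin, rose from 414 and 420 to 990 and 899 CPM in COL and from 399 and 346 to 2624 and 3160 CPM in SI. Of the 14 tested genes of gastric and serrated lesions, 5 rose in COL and 1 in SI, and no difference was called with all libraries and 1, above 0, without SI on replicate 1. Vsig1 rose in COL from 23.0 and 28.7 to 59.4 and 51.1 CPM and was at 0 counts in all SI libraries.

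**Figure D3:**
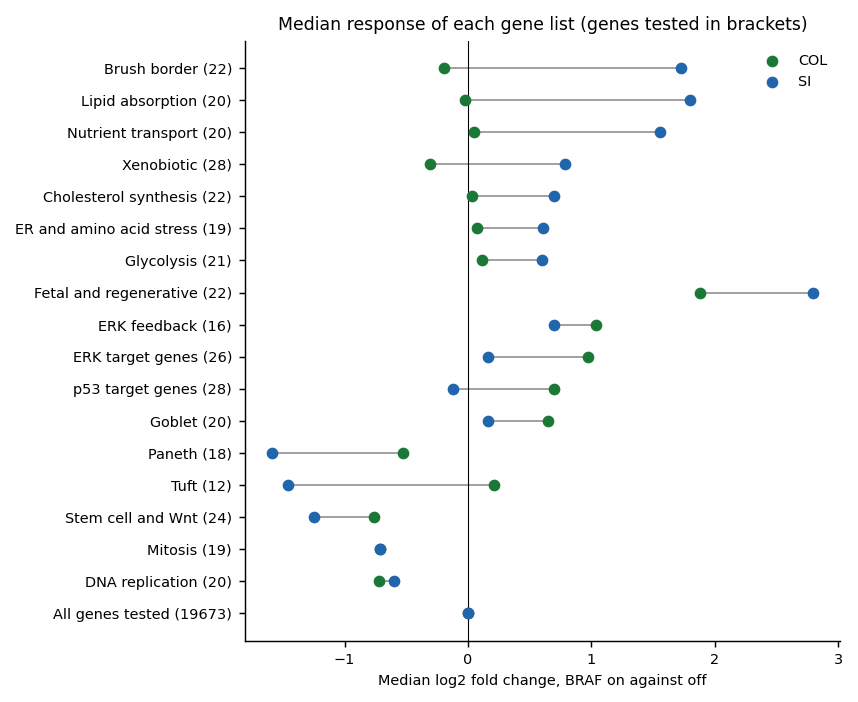
Median log2 fold change from off to on of 17 gene lists and of all genes tested, in COL (green) and in SI (blue). The brush border, lipid and transport lists lie near 0 in COL and at 1.73, 1.80 and 1.56 in SI, the fetal list is high in both, and p53 targets are at 0.70 in COL and at -0.12 in SI.

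To see whether the differences recur in other cultures, the same contrast was formed in the BRAFp53 organoids, which carry the mutant p53 allele in addition and share no library with the comparison above. There, 693 genes had a called difference (3.52%), 274 above (1.39%) and 419 below 0 (2.13%). DESeq2 called 1580, of which 861 lay above and 719 below 0, and edgeR without a filter on low counts called 1548, of which 765 lay above and 783 below 0. Of the 2108 genes called in BRAF organoids, 1162 (55.1%) had the same sign in BRAFp53 organoids, against 47.6% of all genes tested. The same sign together with a call was found for 211 (10%, against 2.28% of all genes tested), and a call with the opposite sign for 44. The median size of the difference was 1.06 over the 2108 genes in BRAF organoids, and the median in BRAFp53 organoids, signed by the BRAF difference, was 0.0666. This share depended on the class. It was 54 of 221 (24.4%) for shared genes with a called difference, 38 of 207 (18.4%) for opposite genes, 40 of 493 (8.11%) for COL-only and 79 of 1110 (7.12%) for SI-only genes. The BRAF difference minus the BRAFp53 difference was itself called above 0 for 469 genes (2.38%) and below 0 for 884 (4.49%). These included 856 of the 2108 genes (40.6%, against 6.88% of all genes tested), in a contrast that contains the BRAF difference by which the 2108 were chosen. The donor cultures differ between the genotypes, so mutant p53 and donor cannot be told apart. Sex markers differed as well. The SI libraries of the BRAFp53 and p53 cultures held 115 to 166 CPM of Xist and at most 0.065 CPM of the Y chromosome gene Ddx3y. All COL libraries held 45.9 to 64.8 CPM of Ddx3y, and the SI BRAF libraries 32.8 to 40.3 CPM. Sex by these markers thus cannot be told apart from tissue in the BRAFp53 and p53 pairs, nor from genotype within SI.

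By list, the brush border had 7 of 22, lipid uptake 8 of 20 and nutrient transport 6 of 20 differences called below 0 in BRAFp53 organoids, with 0, 1 and 0 above. Their medians were -0.75, -0.67 and -0.51, compared with -1.35, -1.46 and -1.83 in BRAF organoids. Sis (-2.34, adjusted p = 0.00229), Anpep (-0.98, adjusted p = 0.0464), Mgam (-1.25), Mttp (-2.32) and Apoa4 (-2.36) were called in both, whereas Fabp1 was not (0.01, adjusted p = 1). Tmigd1 (-4.57), Anxa3 (-2.56) and Ly6a (-1.78) were called again among the shared genes. For cholesterol synthesis (median 0.06) and the stress response (median -0.13) no member was called in BRAFp53 organoids, and the change from the BRAF difference was called below 0 for 8 and 5 members. Glycolysis went the other way, with 4 differences above 0 and a median of 0.50 in BRAFp53 organoids, and the change was called below 0 for 11 of 21 members. The Paneth list had 4 differences below 0 (median -1) where BRAF organoids had 6 above, and the change was called above 0 for 9 of 18. The median difference of the ERK targets was 0.02 in BRAFp53 organoids, with 3 called above and 1 below 0, against 0.85 in BRAF organoids. The p53 targets had 2 differences above 0 (median 0.28) and the ERK feedback genes none, by edgeR, in either direction (median -0.33). Bax (0.72, adjusted p = 0.00433) and Egr1 (0.86, adjusted p = 0.021) were called in both.

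The p53 organoids received 4-HT but carried no floxed Braf allele. In them 99 genes were called in COL and 0 in SI by edgeR (1026 SI genes at an unadjusted p under 0.05), and the difference was called for 23 genes (0.117%), 2 above and 21 below 0. DESeq2 called 162 differences, 37 above and 125 below 0. Without a filter on low counts edgeR called 488, of which 126 lay above and 362 below 0. The medians of the absorptive lists were also below 0 in these organoids. They were -0.54 for the brush border (2 of 22 members above 0), -0.82 for lipid uptake (4 of 20) and -0.62 for nutrient transport (0 of 20). Further medians were -0.51 for xenobiotic metabolism, -0.45 for cholesterol synthesis and -0.52 for glycolysis. In the COL p53 cultures Sis fell from 42.9 ± 0.685 to 10.9 ± 1.44 CPM and Anpep from 202 ± 26.3 to 78.8 ± 0.0918 CPM (mean ± SD, n = 2 each). Both differences were among the 23 called by edgeR (adjusted p = 0.0378 and 0.0181). The medians were 0.42 for the fetal list, 0.14 for p53 targets and 0.11 for the Paneth list. The part of 4-HT and mutant p53 in the BRAF differences was not tested.

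**Figure D4:**
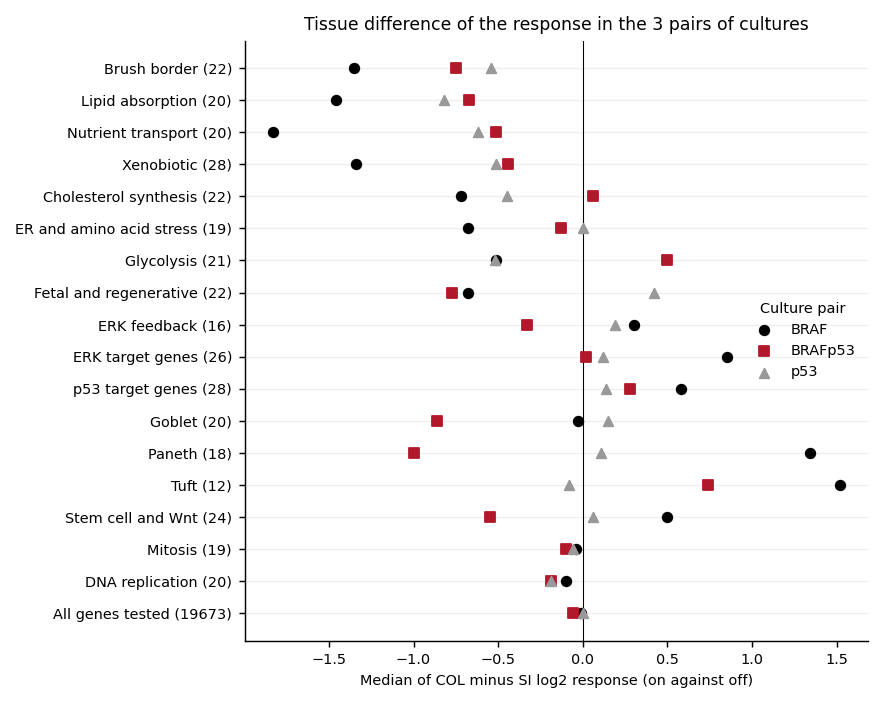
Median difference of responses, COL minus SI on the log2 scale, of the gene lists in the BRAF, BRAFp53 and p53 culture pairs. The absorptive lists are below 0 in all 3 pairs and lowest in BRAF, whereas cholesterol synthesis and the stress response are at -0.72 and -0.68 in BRAF and at 0.06 and -0.13 in BRAFp53.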

How the data were processed

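The authors trimmed paired-end reads with Trimmomatic 0.36, aligned them with STAR 2.5.2b to the mouse genome (mm10 in the methods, mm9 and mm10 in the submitters' processing notes) and deposited raw counts per Ensembl gene, 1 table per tissue. Annotation release and strand are not given in the sources used here. The 2 tables were joined over 45706 identifiers, of which 45143 matched GENCODE M21 (GRCm38). Counts were tested with edgeR 4.0.16 (quasi-likelihood, TMM, filterByExpr) in R 4.3.3, over 24 libraries in 12 groups, and adjusted over 19673 genes by Benjamini-Hochberg. CPM are TMM-scaled. Samples were grouped by their labels. Replicates differed beyond sampling noise (chi-square per degree of freedom 33.04 to 60.14 in the BRAF groups), so each counts as 1 sample. Equal replicate numbers did not pair libraries (correlations of deviations -0.0286 to 0.0421 in the 6 cultures). The script was tested on simulated data. Named genes were Braf, Trp53, genes the study names, up to 5 per class and direction with the largest differences (shared genes by the smaller change) among genes whose log2 CPM averaged 3 or more, with no overlap between on and off libraries, and members of the lists with the largest differences or textbook roles. The classes, members and lists were chosen with earlier results of these data known. Further lists were computed and not all are described. DESeq2 1.42.0, limma 3.58.1 and other settings served as alternatives. Some genes are not reported here. Promoter sequences are from RefSeq (GRCm38.p6).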

Additional observations from a re-analysis of the deposited data

Results flagged for a closer look

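The difference of responses was tested as a contrast of its own for every gene, and 2108 genes passed. Of the named genes 49 were among them, picked out here because the effect in COL organoids differed from that in SI organoids, with values as COL minus SI on the log2 scale.

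COL-only increases were Col18a1 (4.83), Slc4a11 (3.89), Aldh1a3 (2.38), Pdlim7 (2.37), Oas1a (2.37), Fosl1 (2.93), Dusp4 (1.24) and Myof (2.29). COL-only decreases were Hao2 (-8.15), Slc28a1 (-6.20), Nat8 (-5.27), Bbox1 (-4.77) and Ugt2b5 (-4.04). SI-only increases were Hoxa7 (-9.04), Amotl1 (-7.12), Ces2b (-5.12), Hsd17b6 (-4.83) and H2-Q1 (-3.97). SI-only decreases were Dclk1 (2.71), Tcaf2 (2.41), Cbx6 (2.29), Pitpnc1 (2.18) and Arhgap29 (1.97).

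Opposite genes were Fam129b (2.19), Sh3pxd2b (2.07), Tnfrsf1b (2.04), Rab15 (1.95) and N4bp3 (1.82), up in COL, and Akp3 (-9.37), Bst1 (-6.54), Fabp1 (-4.69), Cyp3a25 (-4.36), Hsd17b13 (-4.31) and Sis (-2.13), up in SI. Shared genes of unequal size were Slc1a1 (-3.03), Sh3rf2 (-2.40), Ces1d (-2.39), Pipox (-2.07), Itpripl2 (1.85), Tmigd1 (-4.43), Enpp3 (-3.93), Anxa3 (-3.73), Nid1 (-3.69), Sgk2 (-3.37), Hk1 (-1.46), Dusp6 (-1.48) and Spry4 (1.90). Differences were also called for the claudin gene Cldn15 (-1.58) and for Amacr (-1.03), a racemase of fatty acid oxidation. Of the 49 genes, 31 kept their call when each of the 8 libraries was left out in turn and 18 lost it at least once, among them Amacr and Aldh1a3, which kept it without 2 and 3 of the libraries only. With limma-voom 14 of the 49 were not called, namely Slc4a11, Aldh1a3, Hao2, Slc28a1, Nat8, Bbox1, Hoxa7, Amotl1, Hsd17b6, Tcaf2, Arhgap29, Fosl1, Myof and Amacr. Fitted values of Hao2, Hoxa7, Amotl1 and Akp3 rest on libraries at 0 and are no fold changes.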

How the results depend on the processing

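With 2 libraries per group and 1 donor culture per tissue, calls rest on the spread between libraries of the same label. Tissue, donor, dose and day cannot be told apart. Genes near 0 counts in 1 tissue limit what can be called. With a log2 fold change of at least 1 required, 1139 differences, 1499 COL genes, 2040 SI genes and 435 BRAFp53 differences were called, with 552 shared, 227 COL-only, 530 SI-only, 41 opposite and 1596 unresolved genes. DESeq2 called 2920 differences, 1580 in BRAFp53 (861 above and 719 below 0, against 274 and 419 with edgeR) and 162 in p53 organoids. Without a filter 2580, 1548 and 488 were called, and 39 in p53 organoids with at least 10 counts. The causes were not tested. The 8 libraries alone gave 1720 differences, RLE scaling 2111 and limma-voom 1974. With the replicate number as a block, 1783 differences, 3472 COL genes and 4759 SI genes were called, within 1.5 times the counts without it, and the numbers did not pair the libraries.

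Leaving out each library in turn gave 1202 to 1833 differences, 2105 to 4093 COL genes, 3153 to 5008 SI genes, 1084 to 1999 shared, 276 to 587 COL-only, 602 to 1008 SI-only and 113 to 180 opposite genes. Over the same left-out libraries the difference changed sign for Fosl1 (-1.62 without SI off 2, to 3.81). It also changed sign for genes without a called difference, which ranged from -1.46 to 1.40 for Ereg (-0.49 and -0.39 without COL off 2 and COL on 1), -3.26 to 0.38 for Anxa8, -0.09 to 7.08 for Cbs, -0.26 to 0.02 for Braf, -0.01 to 0.31 for Trp53, -0.02 to 0.38 for Fos, -0.48 to 0.05 for Dusp5, -0.45 to 0.04 for Fgf15, -0.58 to 0.37 for Muc2, -2.36 to 1.22 for Ctse, -0.28 to 0.45 for Smoc2 (-0.02 and -0.23 without COL off 2 and COL on 2), -2.71 to 3.35 for Cav1 and -0.04 to 0.48 for Epha2. With limma-voom it did so for Ctse (0.04) and Cav1 (1.12).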
